A study of Mus musculus with 6 samples.

Results

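The enzymes and regulators of de novo lipogenesis were examined as a set of 9 genes, namely Acly, Acaca, Fasn, Elovl6, Scd1, Scd2, Srebf1, Mlxipl and Thrsp. They were taken by gene symbol from the array annotation, with the probeset of the highest mean signal where a gene had more than 1, and make up 9 of the 19938 genes on the array. All 9 were bright enough to be tested, among 11024 genes with a log2 intensity above 7 on at least 3 arrays. RNA was measured on 3 arrays each for obese Hmox1f/f PdgfraCre and Hmox1f/f mice, in material that the labels name as purified adipose precursors (APs) of the perigonadal fat in one place and as this visceral fat itself (viWAT) in another. Hmox1f/f PdgfraCre mice (arrays 1, 2 and 3) carried floxed alleles of Hmox1, the gene of heme oxygenase-1 (HO-1), and Cre under control of the Pdgfra promoter, a promoter used by APs. Hmox1f/f mice (arrays 4, 5 and 6) carried the floxed alleles alone, so that Cre itself and deletion of Hmox1 cannot be told apart. The mice were males on a C57BL/6 J background and received a high-fat diet (HFD) for 8 weeks, starting at 6 weeks of age. Each array held RNA pooled from 2 mice.

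De novo lipogenesis is the route by which cells build fatty acids from acetyl-CoA. ATP citrate lyase (Acly) splits cytosolic citrate into acetyl-CoA, acetyl-CoA carboxylase 1 (Acaca) turns this into malonyl-CoA, and fatty acid synthase (Fasn) assembles palmitate, which is then elongated by Elovl6 and desaturated by the stearoyl-CoA desaturases. Transcription of the route is driven by SREBP-1c (from Srebf1), which answers to insulin, and by ChREBP (from Mlxipl), which answers to glucose, while Thrsp (Spot 14) encodes a small protein that accompanies lipogenic activity in liver and fat. In white fat the route belongs mainly to mature adipocytes, and a fat-rich diet is known to lower it.

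The labels alone did not settle which of these materials was hybridised. Markers of mature adipocytes were bright throughout, Adipoq lying between 12.74 and 13.10 and Cidec between 13.21 and 13.38 in log2 intensity. Markers of macrophages (Cd68, 12.36 to 13.09) and the AP marker Pdgfra (10.05 to 10.36) were present as well. For its bead-purified APs the paper reports low levels of CD68 and AdipoQ by Q-PCR. The values below are therefore not read as those of purified APs alone. In such bulk RNA a smaller number of cells of a type and less RNA per cell cannot be told apart. Hmox1 had log2 intensities of 11.25, 11.36 and 10.74 on the Hmox1f/f PdgfraCre arrays, against 11.90, 11.63 and 12.32 on those of Hmox1f/f, a difference of -0.83 ± 0.23 (SE; adjusted p = 0.266, limma). The loxP sites flank exon 2, and since the positions of the Hmox1 probes were not analysed here, this gene is a limited check of the labels. The mean of 18 macrophage markers was 10.73, 11.02 and 10.52 on the Hmox1f/f PdgfraCre arrays, against 11.27, 11.20 and 11.28 on those of Hmox1f/f. These markers thus ranked the 6 arrays in the same order as Hmox1 did. The part of macrophages in the Hmox1 difference was not tested, which limits this check further. Epididymal genes, which do not belong to fat, were bright on some arrays. Lcn5 was at 12.21 on Hmox1f/f PdgfraCre 1 and at 5.39 to 5.86 on the other arrays, and Gpx5 at 10.33 on Hmox1f/f 6 and at 5.17 to 7.55 on the others. Adam7, the only one of 7 epididymal markers found that passed the filter, had 11.68, 5.43 and 8.93 on the Hmox1f/f PdgfraCre arrays, against 5.49, 5.52 and 7.85 on those of Hmox1f/f (difference 2.39 ± 1.56, SE). Adam7 was thus above 7 on Hmox1f/f PdgfraCre 1 and 3 and on Hmox1f/f 6, and results were also computed without these arrays.

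All 9 lipogenesis genes had a higher mean in Hmox1f/f PdgfraCre, and 0 of them passed an adjusted p of 0.05 in limma. The largest differences were those of the glucose-responsive factor Mlxipl (0.48 ± 0.13, SE), the elongase Elovl6 (0.44 ± 0.13) and Thrsp (0.38 ± 0.10), on the log2 scale. These amount to 1.39-fold, 1.36-fold and 1.30-fold higher signals, and each had an unadjusted p under 0.05 and an adjusted p of 0.266. The central enzymes Fasn, Acaca and Acly differed less (0.25, 0.23 and 0.03), as did the desaturases and Srebf1. The median of the 9 genes was 0.23, beside a median of -0.03 over all genes tested.

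These counts stand against the following background. Of the 11024 genes tested, 0 (0%) passed the adjusted threshold of limma, although 1740 reached an unadjusted p under 0.05. A mean higher in Hmox1f/f PdgfraCre was found for 42.6% of all genes tested, beside 9 of 9 lipogenesis genes. An unadjusted p under 0.05 with a higher mean was found for 3.03% of genes tested, beside 3 of 9. In 5.82% of genes tested all 3 Hmox1f/f PdgfraCre arrays lay above all 3 Hmox1f/f arrays, which held for 4 of 9 lipogenesis genes, namely Elovl6, Mlxipl, Thrsp and, by a very small margin, Scd1. Over all genes tested the lower direction was the more frequent one. A lower mean was found for 57.4%, an unadjusted p under 0.05 with a lower mean for 12.8%, and all 3 Hmox1f/f PdgfraCre arrays below all 3 Hmox1f/f arrays for 21.2%, beside 0 of 9 lipogenesis genes in each case.

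**Figure D1:**
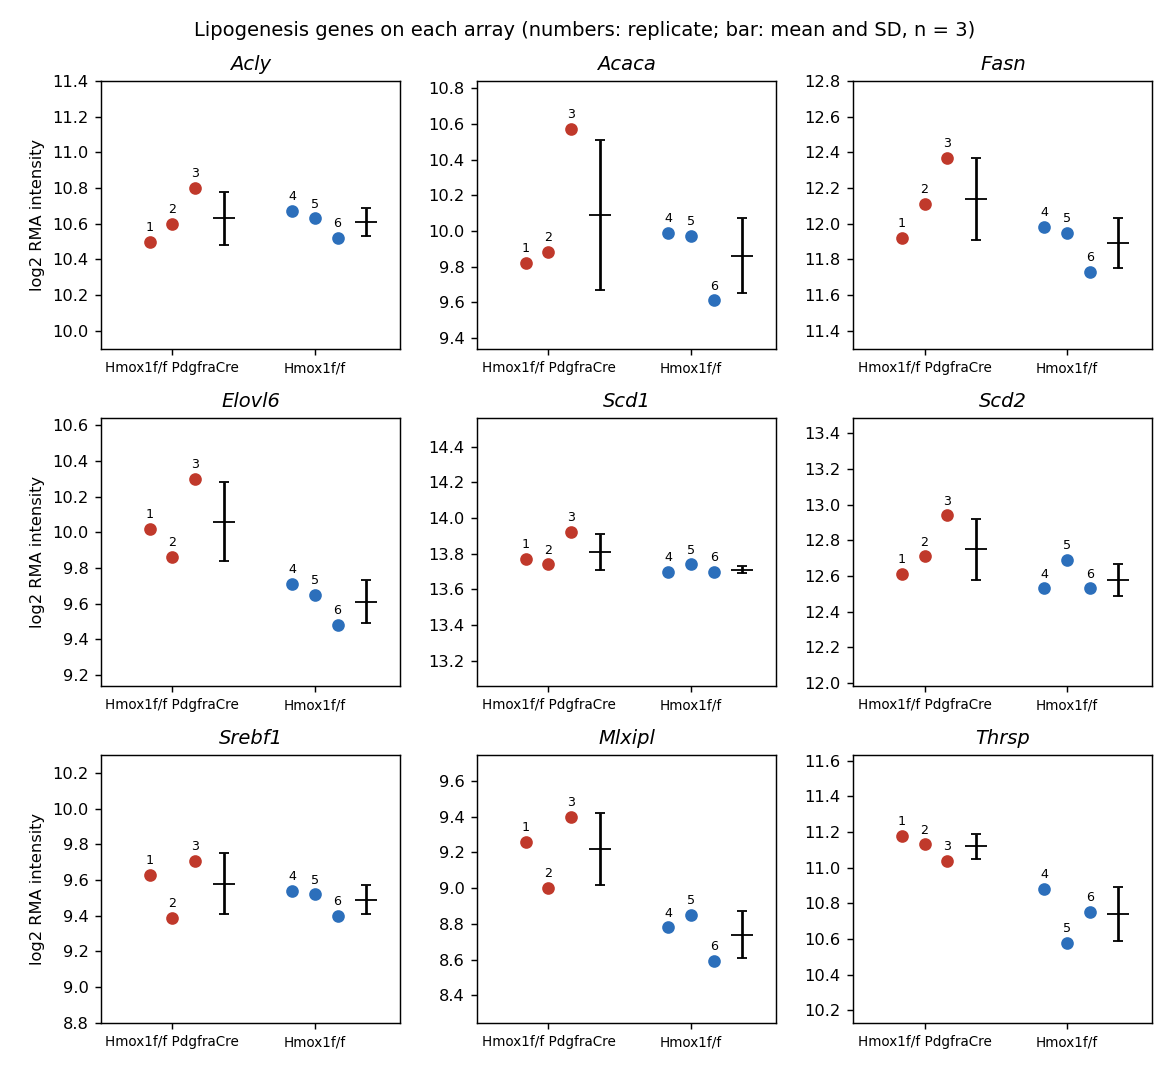
Each panel shows 1 lipogenesis gene, with log2 RMA intensity on the vertical axis (a span of 1.5 units) and each Hmox1f/f PdgfraCre (red) and Hmox1f/f (blue) array as a point numbered by replicate, beside its group mean and SD (3 arrays). The 3 red points lie above the 3 blue ones for Elovl6, Mlxipl, Thrsp and narrowly Scd1, and Hmox1f/f PdgfraCre 3 is the highest array in every panel except that of Thrsp.

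Acly, at chr11:100476352-100528000 (GRCm38.p6), supplies the acetyl-CoA for the route. Its log2 intensity was 10.50, 10.60 and 10.80 on the Hmox1f/f PdgfraCre arrays, against 10.67, 10.63 and 10.52 on those of Hmox1f/f. The groups overlapped almost completely, with a difference of 0.03 ± 0.10 (SE) and a 95% confidence interval from -0.22 to 0.27. As a fold this interval spans 0.86 to 1.20.

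Acaca, at chr11:84129635-84401651, catalyses the committed step and had 9.82, 9.88 and 10.57 on the Hmox1f/f PdgfraCre arrays, against 9.99, 9.97 and 9.61 on those of Hmox1f/f. A single array, Hmox1f/f PdgfraCre 3, stood above the rest and the other 2 with Cre lay below 2 of the 3 controls. The difference of 0.23 ± 0.22 (SE; interval from -0.30 to 0.77, adjusted p = 0.597 by limma) was -0.0043 without that array. Acaca was the only one of the 9 with a second probeset. It gave 9.01, 9.36 and 9.79 on the Hmox1f/f PdgfraCre arrays, against 9.14, 9.34 and 8.91 on those of Hmox1f/f, with a difference of 0.26, and Hmox1f/f PdgfraCre 3 was again the highest array.

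Fasn, at chr11:120805958-120825166, had 11.92, 12.11 and 12.37 on the Hmox1f/f PdgfraCre arrays, against 11.98, 11.95 and 11.73 on those of Hmox1f/f. The groups overlapped because Hmox1f/f PdgfraCre 1 lay below 2 controls. The Fasn difference was 0.25 ± 0.14 (SE; interval from -0.08 to 0.58, adjusted p = 0.4 by limma), and 0.13 without Hmox1f/f PdgfraCre 3. Fasn, Acaca, Acly and Scd2 shared their order on the arrays with Cre, with array 3 highest and array 1 lowest.

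Elovl6, at chr3:129532386-129638495, extends palmitate to stearate. Its log2 intensity was 10.02, 9.86 and 10.30 on the Hmox1f/f PdgfraCre arrays, against 9.71, 9.65 and 9.48 on those of Hmox1f/f, with means of 10.06 ± 0.22 and 9.61 ± 0.12 (SD, n = 3 each). The lowest array with Cre was above the highest without. The 95% interval of the difference ran from 0.13 to 0.76, and with 1 array left out in turn the difference ranged from 0.32 to 0.54.

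The desaturase genes Scd1 and Scd2 lie in the same region of chromosome 19, at chr19:44394450-44407709 and chr19:44293676-44306864. Their enzymes place the double bond that turns stearate into oleate. The values of Scd1 lay close together, at 13.766, 13.745 and 13.924 on the Hmox1f/f PdgfraCre arrays, against 13.697, 13.742 and 13.701 on those of Hmox1f/f. Although the groups did not overlap, the gap between the lowest array with Cre (13.745) and the highest without (13.742) was far smaller than the SD of 0.10 among the arrays with Cre. The difference was 0.10 ± 0.08 (SE; interval from -0.09 to 0.28, adjusted p = 0.532 by limma). Scd2 gave 12.61, 12.71 and 12.94 on the Hmox1f/f PdgfraCre arrays, against 12.53, 12.69 and 12.53 on those of Hmox1f/f. Here Hmox1f/f 5 lay within the range of the arrays with Cre, and the difference was 0.17 ± 0.11 (SE; interval from -0.09 to 0.43). Without Hmox1f/f PdgfraCre 3 it was 0.07 for Scd2 and 0.04 for Scd1. The 2 desaturases are close relatives, and how far their probesets cross-hybridise was not tested. The related genes Scd3 (5.91 to 6.51 over all arrays) and Scd4 (5.17 to 5.43) were below the filter.

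The 2 transcription factors behaved differently in size, although this contrast was not tested. Srebf1, at chr11:60199084-60224186, had 9.63, 9.39 and 9.71 on the Hmox1f/f PdgfraCre arrays, against 9.54, 9.52 and 9.40 on those of Hmox1f/f. Its groups overlapped, with a difference of 0.09 ± 0.10 (SE; interval from -0.17 to 0.34, adjusted p = 0.684 by limma). Mlxipl, at chr5:135089890-135139768, had 9.26, 9.0 and 9.40 on the Hmox1f/f PdgfraCre arrays, against 8.78, 8.85 and 8.59 on those of Hmox1f/f. All arrays with Cre lay above all controls, and the means were 9.22 ± 0.20 and 8.74 ± 0.13 (SD, n = 3 each). The Mlxipl interval ran from 0.17 to 0.78, and 326 genes tested had a p at least as small, 47 of them with a higher mean in Hmox1f/f PdgfraCre (both counts include Mlxipl). The ranges of the difference with 1 array left out in turn were 0.39 to 0.59 for Mlxipl and 0.02 to 0.18 for Srebf1.

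Thrsp, at chr7:97412933-97417550, had the smallest p of the 9 genes (0.00765 unadjusted, 0.266 adjusted, limma). It gave 11.18, 11.13 and 11.04 on the Hmox1f/f PdgfraCre arrays, against 10.88, 10.58 and 10.75 on those of Hmox1f/f, with means of 11.12 ± 0.07 and 10.74 ± 0.15 (SD, n = 3 each). Again no array of one group lay within the range of the other. Thrsp departed from the other 8 genes in that Hmox1f/f PdgfraCre 3 was its lowest array with Cre, and its difference was 0.42 without this array. The interval of the Thrsp difference ran from 0.14 to 0.62.

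**Figure D2:**
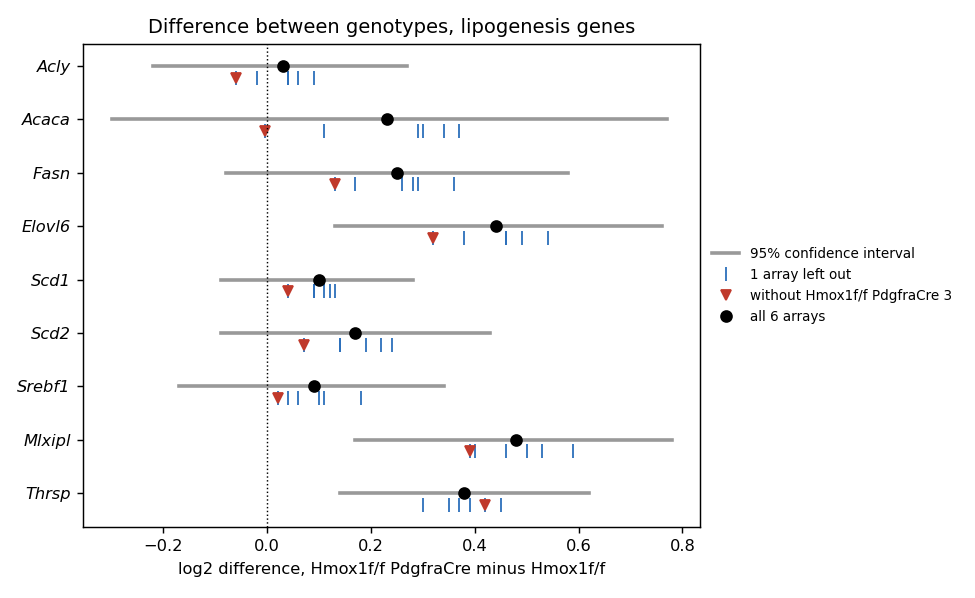
Log2 difference of each lipogenesis gene, Hmox1f/f PdgfraCre minus Hmox1f/f (horizontal axis), with all 6 arrays (black points) and its 95% confidence interval (grey), and with each array left out in turn (blue ticks, red triangle without Hmox1f/f PdgfraCre 3). The intervals of Elovl6, Mlxipl and Thrsp lie above 0 and those of the other 6 genes cross it, and without Hmox1f/f PdgfraCre 3 Acly is at -0.06 and Acaca at -0.0043.

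Promoters are shown for the 3 genes with the largest differences, of which Mlxipl has 2 annotated starts that its single probeset did not separate. In mouse the upstream start, 17001 bases before the downstream one, belongs to the shorter ChREBP-beta form, whose transcription is itself driven by ChREBP. The windows hold the 250 bases before each RefSeq start (GRCm38.p6) and are printed 5′ to 3′ on the strand of the gene. Capitals mark matches, on either strand, to a sterol response element (TCACNCCAC), an E-box (CACGTG), a ChoRE-type motif of carbohydrate response (CACGNG, which includes the E-box), a CCAAT box (CCAAT) or a GC box (GGGCGG).
Elovl6, chr3:129532136-129532385, plus strand: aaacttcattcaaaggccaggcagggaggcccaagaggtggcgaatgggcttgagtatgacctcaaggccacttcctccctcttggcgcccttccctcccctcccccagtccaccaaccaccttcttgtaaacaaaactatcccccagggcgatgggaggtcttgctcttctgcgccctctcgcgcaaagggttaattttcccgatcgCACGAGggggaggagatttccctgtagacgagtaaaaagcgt
Mlxipl upstream start, chr5:135089640-135089889, plus strand: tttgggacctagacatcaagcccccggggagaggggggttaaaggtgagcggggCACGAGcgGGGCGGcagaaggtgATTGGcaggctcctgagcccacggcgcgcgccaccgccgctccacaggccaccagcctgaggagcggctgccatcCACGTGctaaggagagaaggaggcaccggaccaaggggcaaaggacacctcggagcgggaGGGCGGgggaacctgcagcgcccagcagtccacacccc
Mlxipl downstream start, chr5:135106641-135106890, plus strand: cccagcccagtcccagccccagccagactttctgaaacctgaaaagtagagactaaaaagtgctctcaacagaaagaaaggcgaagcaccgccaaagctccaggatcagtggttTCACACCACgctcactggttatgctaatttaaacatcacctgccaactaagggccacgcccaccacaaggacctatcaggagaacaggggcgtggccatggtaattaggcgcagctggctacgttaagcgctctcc
Thrsp, chr7:97417551-97417800, minus strand: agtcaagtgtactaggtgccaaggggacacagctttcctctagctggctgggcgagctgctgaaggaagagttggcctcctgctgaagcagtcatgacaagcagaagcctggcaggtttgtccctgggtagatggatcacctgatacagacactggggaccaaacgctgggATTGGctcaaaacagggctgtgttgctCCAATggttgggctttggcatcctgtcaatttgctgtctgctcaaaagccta

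The 4 windows held different motifs. The upstream Mlxipl window had an E-box 98 bases before the start and a further CACGNG motif at 196 bases. It also had GC boxes at 188 and 38 bases and a CCAAT box on the opposite strand at 173 bases. The downstream Mlxipl window had a sterol response element at 136 bases. The Elovl6 window had a CACGNG motif at 42 bases, and the Thrsp window CCAAT boxes at 79 and 52 bases. Among all 32851 promoter windows of this length, a sterol response element was found in 1.05% and an E-box in 6.02%. A CACGNG motif was found in 23.5%, a CCAAT box in 33.8% and a GC box in 32.7%. The table held 10 windows for 7 of the 9 genes, and 6 of the 10 starts (downstream Mlxipl, all 3 of Srebf1, Acaca and Fasn) lay inside the annotated span of the gene. Over all 10 windows, the E-box and the sterol response element were each found in 1 and the CACGNG motif in 2. The CCAAT box was found in 5 of the 10 and the GC box in 4. Fasn, whose difference was smaller, had 3 CCAAT matches. A match is a string of letters and not a measured binding site.

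The 9 genes did not vary independently from array to array. Hmox1f/f PdgfraCre 3 was the highest array for 8 of them and Hmox1f/f 6 the lowest for 4. Expressed as deviations from each gene's own mean over the 6 arrays, the average of the 9 genes was 0.04, 0.01 and 0.30 on the Hmox1f/f PdgfraCre arrays, against -0.06, -0.08 and -0.22 on those of Hmox1f/f. The spread among the arrays with Cre was therefore larger than the gap between their lowest array and the highest control. Without Hmox1f/f PdgfraCre 3 the median difference was 0.07 and 7 of 9 genes were higher, beside 36.9% of all genes tested. Elovl6, Mlxipl and Thrsp then stayed at 0.32, 0.39 and 0.42. Without Hmox1f/f 6 the median was 0.14 and 8 of 9 were higher, beside 38.2%. Without Hmox1f/f PdgfraCre 1 and Hmox1f/f 6, the arrays highest in Lcn5 and Gpx5, the median was 0.25 and 9 of 9 were higher, beside 40.9%. In that setting 0 of the 9 had an unadjusted p under 0.05, with 448 such genes in all (limma, 4 arrays). Mlxipl was then at 0.38 ± 0.16 (SE), Elovl6 at 0.40 ± 0.17 and Thrsp at 0.35 ± 0.14. Without all 3 arrays on which Adam7 was above 7 (Hmox1f/f PdgfraCre 1 and 3, Hmox1f/f 6), 1 array with Cre and 2 controls were left. The median was then 0.10 with 6 of 9 genes higher, beside 32.1% of all genes tested, and 0 of the 9 had an unadjusted p under 0.05. Mlxipl and Elovl6 were each at 0.18 and Thrsp at 0.40, while Acaca (-0.10), Acly (-0.05) and Srebf1 (-0.15) were lower with Cre. The single array with Cre is assumed in this fit to vary like the controls. The part of the epididymal signal in the values of the lipogenesis genes was not tested.

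**Figure D3:**
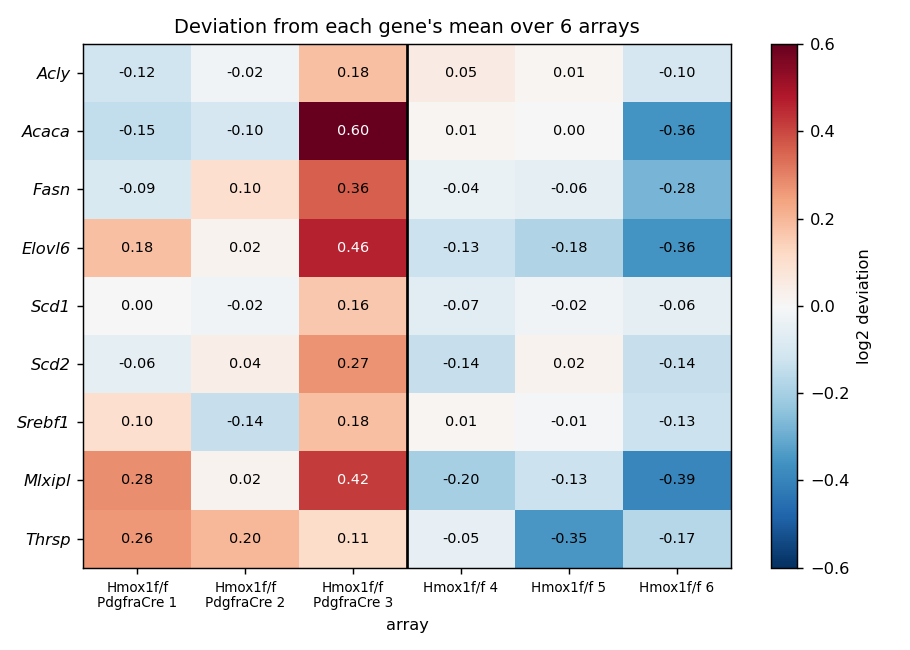
Log2 deviation of each lipogenesis gene (rows) from its own mean over the 6 arrays, by array (columns, Hmox1f/f PdgfraCre left of the line and Hmox1f/f right of it). The column of Hmox1f/f PdgfraCre 3 holds positive deviations from 0.11 (Thrsp) to 0.60 (Acaca), and that of Hmox1f/f 6 negative ones from -0.06 (Scd1) to -0.39 (Mlxipl).

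The 5 genes outside the set whose values followed the 9-gene average most closely over the 6 arrays were Mid2, Nedd4, Ddx5, Akap7 and Inhbb, with Pearson's r from 0.994 to 0.999 and a Spearman's rho of 1.0 each. They were picked from all genes tested over only 6 arrays that fall into 2 genotypes, so such values are a description. Their differences ranged from 0.09 (Ddx5) to 0.39 (Mid2), with adjusted p from 0.290 to 0.522 by limma. Within the set, Elovl6 was most like the average (r = 0.980) and Thrsp least (r = 0.569), an average that contains each gene.

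Genes around the route were next compared by role, and 0 of them passed the adjusted threshold in limma. For the supply of acetyl-CoA, 6 of 10 tested genes had higher means in Hmox1f/f PdgfraCre (median 0.04), beside 42.6% of all genes tested. The insulin-responsive glucose transporter Slc2a4 gave 9.03, 8.89 and 8.97 on the Hmox1f/f PdgfraCre arrays, against 8.75, 8.74 and 8.61 on those of Hmox1f/f, and hexokinase 2 (Hk2) gave 9.31, 9.09 and 9.48 against 9.04, 9.0 and 8.73. Both were without overlap and differed by 0.26 ± 0.08 and 0.37 ± 0.13 (SE; adjusted p = 0.266 and 0.284, limma), each with an unadjusted p under 0.05. The mitochondrial acetyl-CoA synthetase Acss1 differed the other way (-0.36 ± 0.15) and pyruvate carboxylase (Pcx) by 0.16 ± 0.12, both with overlapping groups. The citrate carrier Slc25a1, named after its value was seen, was at 0.01.

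A further list held genes of the supply of NADPH, the reductant of the route, and of the pentose phosphate pathway. Among its genes Taldo1, Tkt and Pgls encode enzymes that do not themselves make NADPH. Of the 7 tested genes, 6 had lower means in Hmox1f/f PdgfraCre (median -0.11), beside 57.4% of all genes tested. An unadjusted p under 0.05 was reached by 2 of the 7, and 3 had no overlap in the lower direction, beside 12.8% and 21.2% of all genes. In the pentose phosphate pathway, Taldo1 gave 9.59, 9.83 and 9.71 on the Hmox1f/f PdgfraCre arrays, against 10.06, 9.99 and 10.23 on those of Hmox1f/f, a difference of -0.38 ± 0.10 (SE). Pgd differed by -0.26 ± 0.10 and Tkt by -0.11 ± 0.07, both also without overlap, and Pgls by -0.20 ± 0.13 with overlap. Their adjusted p ranged from 0.266 to 0.458 by limma. Malic enzyme (Me1), the classical lipogenic source of NADPH and the only one of the 7 with a higher mean, was at 0.09 ± 0.11 (SE). Idh1 was at -0.05 and Mthfd1 at -0.02, both with overlapping groups. No probeset carried G6pdx as its only symbol. Me1, Idh1, Mthfd1 and G6pdx were named after their values were seen.

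Other elongation and desaturation genes were divided, with 5 of 10 tested higher and 5 lower (median -0.02), beside 42.6% higher of all genes. Elovl1, which acts on very long chains, gave 11.01, 11.33 and 11.02 on the Hmox1f/f PdgfraCre arrays, against 11.44, 11.40 and 11.51 on those of Hmox1f/f. Its direction was thus opposite to that of Elovl6, at -0.33 ± 0.11 (SE; adjusted p = 0.267 by limma). The dehydratase genes Hacd3 (-0.26 ± 0.08, no overlap) and Hacd2 (0.18 ± 0.10, overlap) and the desaturase-family gene Fads3 (0.15 ± 0.08, no overlap) followed. Elovl2, Elovl3, Elovl4 and Elovl7 were below the filter, and Elovl2 reached 7.93 on Hmox1f/f PdgfraCre 1 and 8.00 on Hmox1f/f 6, beside 5.25 to 6.00 on the other 4.

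Among the partners of malonyl-CoA metabolism, 4 of 10 tested genes were higher (median -0.05), beside 42.6% of all genes. Prkaa2, the alpha-2 catalytic subunit of AMP-activated protein kinase, which inhibits acetyl-CoA carboxylase, gave 7.95, 7.81 and 8.18 on the Hmox1f/f PdgfraCre arrays, against 7.71, 7.61 and 7.38 on those of Hmox1f/f. Its difference was 0.41 ± 0.13 (SE; adjusted p = 0.267 by limma). The other subunits named, Prkab1 (-0.10) and Prkag2 (-0.14), had overlapping groups, whereas the upstream kinase Stk11 (-0.12) had none of its arrays with Cre within the range of the controls. Acacb, the carboxylase tied to the control of fatty acid oxidation, was at 0.15 ± 0.13 and Mid1ip1, the relative of Thrsp, at 0.08 ± 0.20 (SE; both named after their values were seen).

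Of the genes that process SREBPs or act with them, 2 of 10 were higher (median -0.08), and of ChREBP's partners and targets 3 of 8 (median -0.04), beside the same 42.6%. The helix-loop-helix factor Usf2 (-0.18 ± 0.09, SE), the SREBP protease Mbtps1 (-0.14 ± 0.08), the retinoid receptor Rxra (0.10 ± 0.07) and the LXR gene Nr1h3 (-0.11 ± 0.08) had the smallest p, none under 0.05 before adjustment. Mlx, the obligate partner of ChREBP, gave 8.47, 8.70 and 8.70 on the Hmox1f/f PdgfraCre arrays, against 8.88, 8.80 and 8.85 on those of Hmox1f/f. It thus lay on the other side from Mlxipl, at -0.22 ± 0.09 (SE), and the ChREBP paralogue Mlxip was at 0.22 ± 0.10. The known ChREBP-responsive genes did not share a direction, with Arrdc4 at -0.21 ± 0.07 and Pnpla3 at 0.34 ± 0.14 (SE; adjusted p from 0.267 to 0.348 by limma for these 4 genes). Mitochondrial fatty acid synthesis, a separate route that feeds lipoic acid production, had 5 of 5 genes with higher means (median 0.06), again beside 42.6%. Among them Mecr (0.13), Cbr4 (0.15), Mcat (0.06) and Oxsm (0.05) all had overlapping groups.

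**Figure D4:**
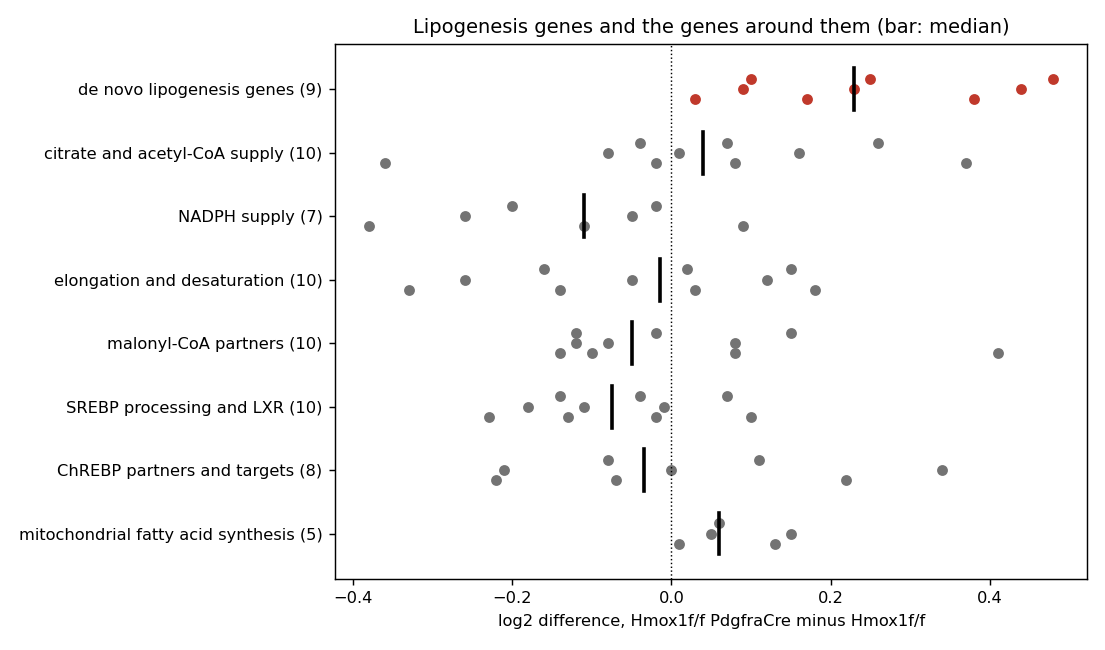
Log2 difference, Hmox1f/f PdgfraCre minus Hmox1f/f (horizontal axis), of each tested gene of the lipogenesis set (red) and of 7 lists around it (grey), with the median of each list (black bar) and the number of genes in brackets. The median is 0.23 for the lipogenesis genes and lies between -0.11 (NADPH supply) and 0.06 (mitochondrial fatty acid synthesis) for the others.

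Marker genes of several cell types also differed in mean between the genotypes, with 0 past the adjusted threshold of limma. Of 19 tested markers of mature adipocytes, 19 had higher means in Hmox1f/f PdgfraCre (median 0.13), beside 42.6% of all genes. For 8 of the 19 the groups did not overlap, beside 5.82% of all genes and 4 of 9 lipogenesis genes. An unadjusted p under 0.05 (limma) was reached by 5 of the 19, beside 3.03% and 3 of 9. The list mean of these markers was 12.32, 12.33 and 12.46 on the Hmox1f/f PdgfraCre arrays, against 12.21, 12.28 and 12.10 on those of Hmox1f/f. Like the lipogenesis genes, this list was highest on Hmox1f/f PdgfraCre 3 and lowest on Hmox1f/f 6. When its deviation on each array was subtracted from that of the lipogenesis genes, 0.01, -0.04 and 0.13 remained on the Hmox1f/f PdgfraCre arrays, against 0.01, -0.08 and -0.04 on those of Hmox1f/f. These remainders overlapped between the genotypes. The subtraction assumes that both lists shift by equal amounts, and it was made on list means, not on single genes. It is a description, and what adipocyte content contributes to the lipogenesis genes was not tested.

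Macrophage markers had the opposite direction, with 18 of 18 tested members lower in Hmox1f/f PdgfraCre (median -0.42), beside 57.4% of all genes. For 15 of the 18 the groups did not overlap, beside 21.2%. Their list mean ranged from 10.52 to 11.02 in Hmox1f/f PdgfraCre and from 11.20 to 11.28 in Hmox1f/f, and was lowest on Hmox1f/f PdgfraCre 3. Endothelial markers were higher in 10 of 10 cases (median 0.37), beside 42.6% of all genes, and 9 of them had no overlap, beside 5.82%. Their list means ran from 9.59 to 9.75 in Hmox1f/f PdgfraCre and from 9.07 to 9.50 in Hmox1f/f. AP markers were divided (8 of 14 higher, median 0.01), beside the same 42.6%. Their list means ran from 9.66 to 9.85 in Hmox1f/f PdgfraCre and from 9.69 to 9.85 in Hmox1f/f. Of the remaining lists, 7 of 9 mural and 1 of 7 mesothelial markers were higher, again beside 42.6%, with overlapping list means. Few lymphocyte markers (2 of 8) and thermogenic markers (3 of 7) passed the filter, and Ucp1 lay between 5.73 and 6.70 on all arrays. The part of these cell types in the values of the lipogenesis genes was not tested.

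**Figure D5:**
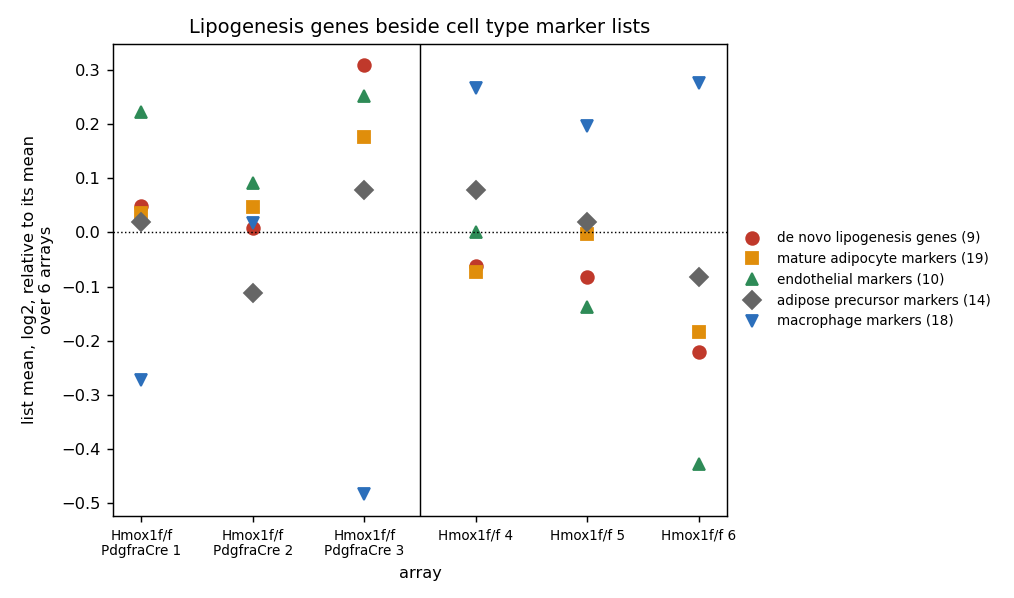
Mean log2 intensity of the lipogenesis genes (red) and of 4 marker lists, relative to the mean of each list over the 6 arrays (vertical axis), by array (horizontal axis, Hmox1f/f PdgfraCre left of the line and Hmox1f/f right of it), with the number of genes in brackets. On Hmox1f/f PdgfraCre 3 the lipogenesis and adipocyte lists are at their highest and the macrophage list at its lowest, and on Hmox1f/f 6 the lipogenesis, adipocyte and endothelial lists are at their lowest.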

How the data were processed

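RNA (200 ng per array, pools of 2 mice) was labelled with the GeneChip WT PLUS kit and hybridised to Affymetrix mouse gene arrays. The deposited values are linear intensity values per probeset, made by the authors with RMA, which corrects background, quantile-normalizes arrays and summarises probes (Affymetrix Expression Console 1.1, from the submitters' processing notes), and rounded to whole numbers from 8 to 20701. This narrows differences between dim signals and hides shifts shared by most genes. Signals of different genes were not tested against each other. Probesets of 1 gene were compared to choose the brightest, and for Acaca the second probeset is also given.

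Of 35556 probesets, 21789 carried 1 gene symbol, 1621 several and 12146 none here. Their 19938 genes were each represented by the brightest probeset. Log2 values were fitted with limma 3.58.1 in R 4.3.3 (lmFit and eBayes, genotype as the only term, all 6 arrays and all genes, two-sided), after which genes with a log2 intensity above 7 on at least 3 arrays were tested and p-values adjusted by Benjamini-Hochberg over these 11024 genes. The model was tested on simulated data. Nothing in the labels names a batch or a litter. The labels call the arrays separate pools. Their number limits the precision.

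The 9 genes, the lists around them and the marker lists were chosen with earlier results of these data known, so no list was tested, and counts are set beside shares of all genes. Genes named from the lists around the route were the up to 4 with the smallest p in each, then Hmox1, Pdgfra, bright or defining markers, and the 5 genes most like the average of the set. Others are marked as named after their values were seen, as are Scd3, Scd4, Elovl2, Elovl3, Elovl4 and Elovl7 below the filter. Promoter windows were taken from RefSeq (GRCm38.p6), with 7 of 9 genes matched. Alternatives comprised testing without a filter, a threshold of 6, the filter of the methods (stated there for another screen, and adding an upper-tercile cutoff on mean absolute deviation), quantile normalization once more, centring on array medians, eBayes with trend and robust, arrayWeights, the mean of all probesets and leaving out each array. After the data were seen, filtering before the moderation and leaving out Hmox1f/f PdgfraCre 1 and Hmox1f/f 6 together, or all 3 arrays with Adam7 above 7, were added. Python 3.11.15 with matplotlib 3.10.9 drew the figures.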

Additional observations from a re-analysis of the deposited data

How the results depend on the processing

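In all 17 other settings 0 genes reached an adjusted p of 0.05 by limma, while the lowest adjusted p of any lipogenesis gene was 0.0897, under the filter of the methods. Of 149 values of single lipogenesis genes under these settings, 142 kept their direction. Without the 3 arrays with Adam7 above 7, Acaca was at -0.10, Acly at -0.05, Srebf1 at -0.15 and, outside the set, Nr1h3 at 0.004, the median of the lipogenesis genes was 0.10, and 662 genes had an unadjusted p under 0.05. The other exceptions were Acly at -0.06 with arrayWeights, and, with an array left out, Acly (range -0.06 to 0.09) and Acaca (range -0.0043 to 0.37), which turned without Hmox1f/f PdgfraCre 3 and, for Acly (-0.02), without Hmox1f/f 6. The median of the 9 genes was 0.08 with arrayWeights, which gave Hmox1f/f PdgfraCre 3 a weight of 0.32, and ranged from 0.07 to 0.35 with 1 array left out. Under the filter of the methods 5 of the 9 genes were tested (Fasn, Acaca, Elovl6, Mlxipl and Thrsp). All 5 had a higher mean, beside 50.7% of the genes tested there, and their median was 0.38. By construction this filter tests fewer genes and keeps those that vary most over the 6 arrays, a variation that includes the genotype difference. The higher median and the lower adjusted p under this filter are therefore no added support. Of the genes it tested, 1117 had an unadjusted p under 0.05 (limma), against 1740. That count ranged from 961 to 2106 with 1 array left out and came to 448 when Hmox1f/f PdgfraCre 1 was left out together with Hmox1f/f 6. The cause of these shifts between arrays was not tested. The share of all genes tested with a higher mean in Hmox1f/f PdgfraCre was 50.2% after a further quantile normalization and 46.5% with centring, against 42.6%. No paired analysis was possible because the arrays are numbered 1 to 3 and 4 to 6, with no number shared between the genotypes. With 3 arrays per group, differences of the size seen here could not be told from the spread between arrays after adjustment.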
